A study of Mus musculus with 3 samples.

Results

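The glucagon and incretin receptor genes considered here are Gcg, Gcgr, Glp1r and Gipr, 4 of the 31053 genes in the deposited count matrices and found there by their symbols. They were followed through pancreatic islet cells of 3 female NOD-SCID mice, non-diabetic and 10-11 weeks old, each mouse giving 1 library of 3′ droplet single-cell RNA counts. All mice belong to 1 group, share the NOD-SCID background, which lacks mature T and B cells, and carry no other allele, transgene or treatment in the labels. The labels name no injury or regeneration, although the series title speaks of regenerated beta cells. Every comparison is thus one of cell class against cell class within these mice, and the p-values cover at most how class differences vary over the 3 animals.

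Gcg encodes proglucagon, the precursor that prohormone convertases cut into glucagon in pancreatic alpha cells and into GLP-1 in intestinal L cells and, in smaller amounts, in the islet. Gcgr encodes the glucagon receptor, best known for raising glucose output in liver. Glp1r and Gipr encode the receptors of the incretins GLP-1 and GIP, gut hormones that increase insulin release after a meal. All 3 receptors belong to class B of the G protein-coupled receptors and signal mainly through Gs and cyclic AMP.

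On mouse build GRCm38 (mm10, GENCODE M21), Gcg lies on the minus strand at chr2:62474530-62483650, Gcgr on the plus strand at chr11:120530699-120538986, Glp1r on the plus strand at chr17:30901817-30940791 and Gipr on the minus strand at chr7:19156061-19166127. Their principal transcripts have 6, 14, 13 and 14 exons, in the same order. The 3′ UTR, which 3′ libraries mostly read, spans 451 bases in Gcg, 290 in Gcgr, 4362 in Glp1r and 1310 in Gipr. Gm11789, an annotated antisense gene, overlaps 1086 bases of Gcgr and had 201 UMIs (unique molecular identifiers, 1 per captured RNA molecule) in the kept cells. How strand was handled in counting is not given in the sources used here. The coding stretches of Gcg below are shown because 1 transcript carries both hormones, so that a Gcg UMI cannot tell glucagon from GLP-1. They are the first 29 codons of each peptide in the GENCODE M21 coding sequence, at chr2:62478566-62478652 and chr2:62476838-62476924 on the minus strand, and capitals mark the 46 of 87 bases (52.9%) that are the same at the same place in both.
glucagon: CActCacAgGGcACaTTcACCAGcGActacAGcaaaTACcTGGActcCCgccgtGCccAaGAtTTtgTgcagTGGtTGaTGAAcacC
GLP-1: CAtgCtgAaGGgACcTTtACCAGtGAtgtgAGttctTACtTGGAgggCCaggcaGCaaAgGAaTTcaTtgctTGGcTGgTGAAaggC

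Bases before the gene start are shown for the 3 of the 4 genes in the RefSeq promoter table (GRCm38.p6), because Gcg on one side and the receptors Gcgr and Glp1r on the other had their highest levels in different endocrine classes. Capitals mark TATAAA or TTTATA, and GGGCGG or CCGCCC, the same motifs on the other strand. The table's windows are the 250 bases before the RefSeq start. For Gcgr and Glp1r that start lies inside the GENCODE gene, so the last 28 and 50 bases of their windows are not shown. The shown parts are chr2:62483654-62483903, minus strand, for Gcg, chr11:120530477-120530698, plus strand, for Gcgr and chr17:30901617-30901816, plus strand, for Glp1r.
Gcg: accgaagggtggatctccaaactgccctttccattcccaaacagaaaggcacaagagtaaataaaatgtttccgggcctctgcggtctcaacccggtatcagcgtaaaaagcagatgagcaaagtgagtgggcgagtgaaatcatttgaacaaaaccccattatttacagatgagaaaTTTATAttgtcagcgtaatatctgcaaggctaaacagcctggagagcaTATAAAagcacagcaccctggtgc
Gcgr: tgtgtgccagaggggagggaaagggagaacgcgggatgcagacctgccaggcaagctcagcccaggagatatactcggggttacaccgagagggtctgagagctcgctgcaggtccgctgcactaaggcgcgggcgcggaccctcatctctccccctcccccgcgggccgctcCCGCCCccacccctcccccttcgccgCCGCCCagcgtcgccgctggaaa
Glp1r: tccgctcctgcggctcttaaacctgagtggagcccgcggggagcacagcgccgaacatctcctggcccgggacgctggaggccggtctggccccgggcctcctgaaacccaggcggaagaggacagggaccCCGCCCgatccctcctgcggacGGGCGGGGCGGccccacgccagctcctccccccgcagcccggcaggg
Over all 250 bases, the Gcg window had 2 TATA matches, no GC box match and 44.8% G plus C. The Gcgr window had 2 GC box matches, no TATA match and 70.4% G plus C, and the Glp1r window had 3 GC box matches, some of them overlapping, no TATA match and 73.2% G plus C. Over 32851 promoter windows of the same length, 12.4% held the TATA motif on either strand, 32.7% held the GC box motif, and the median G plus C content was 52.4%. These matches describe letters in a window and were not linked to binding of any factor.

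The libraries of mice 1 to 3 held 32389170 to 57849496 UMIs over 4444 to 6005 barcodes, and filters kept 1090, 2609 and 3474 cells. Cells were classed by the share of their UMIs from insulin (Ins1 plus Ins2, at least 30%, beta class), Gcg (at least 20%, alpha), Sst (at least 8%, delta) or Ppy (at least 10%, gamma), and by lineage markers for other classes. The receptors were never used for this. The beta class held 174, 815 and 389 cells in mice 1, 2 and 3, the alpha class 188, 449 and 1195, the delta class 60, 147 and 533, and the gamma class 18, 9 and 193. A further 417, 653 and 319 kept cells met no rule and stayed without a class. The labelled tissue was checked against marker genes. The 8 alpha markers other than Gcg made up 1.87% to 2.48% of alpha UMIs over the 3 mice, against 0.0747% to 0.0996% of beta UMIs. The beta class had no such check without insulin. Kept cells were also clustered on the marker genes, members left out. Clusters named beta held 92, 21 and 7 cells of mouse 1 and 200, 31 and 16 of mouse 2. In mouse 3 they held 249, 106 and 3. Most of the 815 beta-class cells of mouse 2 thus lay outside them, and their identity was not tested further. Clusters named acinar held up to 493 cells of mouse 2, against 76 in its acinar class. Mice 1 and 2 shared 148 barcodes, 14 of them kept as cells in both, and the other pairs shared 9 and 13. Because insulin and other hormones took 68.2% of beta UMIs, 46.8% of alpha UMIs and 28.0% of delta UMIs on average, receptor levels are given as UMIs per 1000000 UMIs of genes other than 7 hormone genes, called non-hormone CPM. Levels and shares carry exact 95% intervals, which cover counting error only.

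Gcg made up 44.7%, 44.8% and 43.9% of all UMIs in the alpha class of mice 1, 2 and 3, a mean of 44.5% ± 0.496 (SD, n = 3), and was the most abundant transcript of that class in every mouse. Since Gcg chose these cells, the values are a description. Single alpha cells held up to 62.9%, 61.0% and 75.7% Gcg, with medians of 41.2%, 39.6% and 43.0%. Just below the limit, with 15% to 20% Gcg, were 9, 57 and 56 cells, and just above it, with 20% to 25%, were 12, 47 and 65. At least 5 of the 8 other alpha markers were detected in 194, 304 and 1026 kept cells, chosen without reading Gcg, and 23, 17 and 42 of these had under 5% Gcg. Those that met no other class's rule numbered 157, 276 and 939 and gave Gcg 44.6%, 45.7% and 43.2% of their UMIs, and 96.8%, 95.7% and 96.8% of them reached 20% Gcg. The summed share in these cells was close to that of the alpha class in each mouse.

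Gcg UMIs were also found in nearly every other cell. At least 1 was present in 1090 of 1090, 2606 of 2609 and 3474 of 3474 kept cells. Gcg was 0.304%, 0.483% and 0.171% of UMIs in the beta class of mice 1, 2 and 3, and 0.268%, 0.252% and 0.369% in the delta class. Endothelial cells, which do not make glucagon, held 1.01%, 1.67% and 0.777%, and macrophages held 0.477%, 0.516% and 0.732%. Beta and delta values therefore lay at or below those of the endothelial class in every mouse. Barcodes removed by the filters gave 4.95%, 5.44% and 10.4% of their UMIs to Gcg. The ratio of Gcg to insulin UMIs was 0.228, 0.289 and 0.517 in the endothelial class and 0.214, 0.247 and 0.734 in the removed barcodes, and was highest in mouse 3 in both. Gamma cells, which make pancreatic polypeptide, held 1.73%, 0.0733% and 1.99% Gcg in sum. Gamma cells with at least 5% Gcg numbered 1 of 18, 0 of 9 and 24 of 193 cells in the 3 mice. A further 0, 1 and 14 cells passed both the Gcg and the Ppy limit and were set apart as mixed, while 0, 1 and 0 passed both the Gcg and the insulin limit. Doublets were removed by score only, and their part in these cells was not tested.

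**Figure D1:**
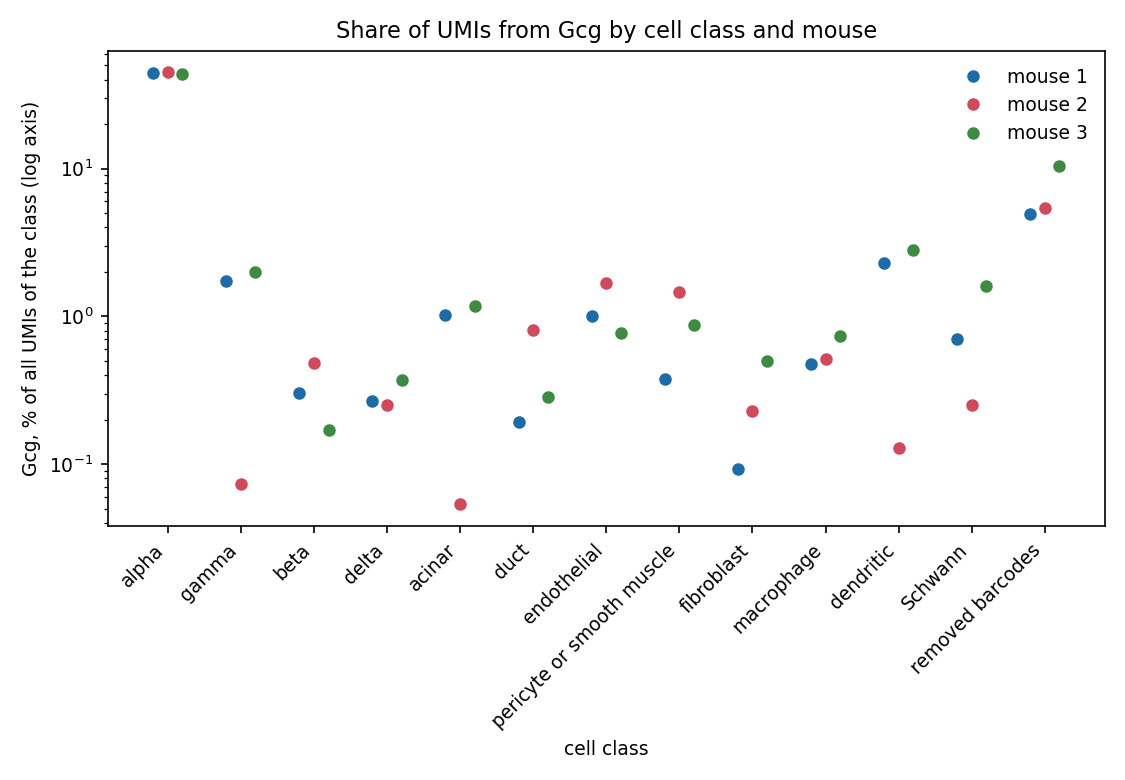
Share of all UMIs that came from Gcg (log axis, %) in each cell class and in barcodes removed by the filters, 1 point per mouse. The alpha class sits at 43.9% to 44.8% in all mice, and beta and delta values stay between 0.171% and 0.483%.

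Gcgr, the glucagon receptor gene, was far higher in beta cells than in alpha cells. The beta class had Gcgr levels of 19.6, 24.6 and 34.1 non-hormone CPM in mice 1, 2 and 3 (38, 159 and 131 UMIs), a mean of 26.1 ± 7.33 (SD, n = 3). The alpha class had 0.626, 1.46 and 0.350 non-hormone CPM (2, 6 and 4 UMIs), a mean of 0.813 ± 0.580. No alpha value came near a beta value. The log2 fold change of beta over alpha was 5.09 (SE 0.39, adjusted p = 2.58e-12, edgeR's quasi-likelihood test, higher in 3 of 3 mice). Leaving out 1 mouse moved its size, to 4.13 without mouse 3 (adjusted p = 7.13e-18) and 5.76 without mouse 2 (adjusted p = 2.67e-25, both edgeR with no low-count filter). With all 3 mice and no low-count filter it was 5.09 (adjusted p = 3.19e-45, edgeR), so p-values without the filter are not comparable with those of the filtered fit. The ratio of the levels was 31.4, 16.8 and 97.4 in mice 1, 2 and 3, and 41.8 on summed UMIs, with an exact 95% counting interval of 23.6 to 81.8. In this comparison 19.5% of 11937 tested genes were called higher in beta and 39.1% were called in either direction, so a call by itself is common here.

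The delta class lay between the other 2 classes for Gcgr. It had 5.76, 2.43 and 5.74 non-hormone CPM (5, 3 and 23 UMIs), a mean of 4.64 ± 1.91 (SD, n = 3). The lowest beta value, 19.6, stayed above the highest delta value. Beta over delta was 2.52 on the log2 scale (SE 0.35, adjusted p = 6.28e-07, edgeR), with 16.4% of tested genes called higher in beta. Delta over alpha was 2.57 (SE 0.54, adjusted p = 0.00038, edgeR), with 15.3% of tested genes called higher in delta. That last call rested on mouse 3, which held 23 of the 31 delta UMIs. Without mouse 3 delta over alpha was 1.49986 (adjusted p = 0.270 in a fit with no low-count filter, since Gcgr then missed the filter), and without mouse 2 it was 3.41 (adjusted p = 4.85e-06 in the same kind of fit). The gamma class had no Gcgr UMI in 220 cells, where 3 UMIs would have been 1.44 non-hormone CPM. Over the 3 mice, the summed beta level was 18.7-fold that floor. The exact lower counting limit of beta over gamma was 15.1. Within mice 1, 2 and 3 the ratio of beta to the floor of 3 UMIs was 2.05, 0.805 and 19.0. Mouse 3 held 193 of the 220 gamma cells, and in mouse 2 beta lay below the gamma floor.

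Glp1r, the GLP-1 receptor gene, was sparse and again highest in the beta class. Beta cells had 10.3, 7.43 and 12.5 non-hormone CPM (20, 48 and 48 UMIs), a mean of 10.1 ± 2.54 (SD, n = 3). Alpha cells had 1.25, 0.975 and 0.175 non-hormone CPM (4, 4 and 2 UMIs), a mean of 0.801 ± 0.560. Delta cells had 1.15, 0.811 and 1.498 non-hormone CPM (1, 1 and 6 UMIs), a mean of 1.15 ± 0.343. Beta stood above both in every mouse, while alpha and delta values overlapped. Glp1r did not pass the low-count filter of the fit on 6 classes, so its test comes from the same fit without the filter, in which 12.5% of 20646 genes were called higher in beta than in alpha, 11.8% higher in beta than in delta and 9.26% higher in delta than in alpha. Beta over alpha was 3.82 (SE 0.49, adjusted p = 1.60e-13, edgeR) and beta over delta 3.01 (SE 0.55, adjusted p = 5.22e-07, edgeR). P-values without the filter can be far smaller and do not measure the spread over 3 mice well. In a fit on alpha, beta and delta sums alone Glp1r passed the filter. It gave 3.93 (SE 0.46, adjusted p = 9.24e-09) and 3.03 (SE 0.52, adjusted p = 1.11e-05, edgeR). In the 6-class fit without the filter, leaving out mouse 3, which held 2 of the 10 alpha UMIs, gave 2.76 for beta over alpha (adjusted p = 0.00011, edgeR). Delta over alpha was 0.81 in the 6-class fit without the filter (SE 0.77, adjusted p = 0.589, edgeR). It was 0.90 with alpha, beta and delta sums alone (SE 0.77, adjusted p = 0.376, edgeR). This difference was not detectable at this depth, with a counting interval of 0.841 to 6.90 around a ratio of 2.45 on summed UMIs. Gamma cells had no Glp1r UMI, and summed beta levels were 6.60-fold the floor of 3 UMIs over the 3 mice. The exact lower counting limit of beta over gamma was 5.28. Within mice 1, 2 and 3 the ratio of beta to that floor was 1.08, 0.243 and 6.98. In mouse 2 beta thus lay below the gamma floor.

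Gipr, the GIP receptor gene, was highest in beta cells and was found in all 4 endocrine classes. Beta cells had 69.3, 56.3 and 78.8 non-hormone CPM (134, 364 and 303 UMIs), a mean of 68.1 ± 11.3 (SD, n = 3). Alpha cells had 12.8, 17.1 and 18.8 non-hormone CPM (41, 70 and 215 UMIs), a mean of 16.2 ± 3.07. Delta cells had 19.6, 23.5 and 19.97 non-hormone CPM (17, 29 and 80 UMIs), a mean of 21.02 ± 2.17, and gamma cells had 19.1, 10.2 and 15.5 non-hormone CPM (6, 1 and 26 UMIs). The beta values stood clear of every other endocrine value, and the alpha, delta and gamma values ran from 10.2 to 23.5. The lowest of these, gamma in mouse 2, rested on 1 UMI (exact 95% interval 0.258 to 56.8 non-hormone CPM), and each delta value was above each alpha value. Beta over alpha was 1.84 on the log2 scale (SE 0.18, adjusted p = 5.76e-10, edgeR) and beta over delta 1.79 (SE 0.21, adjusted p = 3.09e-08, edgeR). Delta over alpha was 0.046 (SE 0.23, adjusted p = 0.926, edgeR), and the ratio on summed UMIs was 1.18, with a counting interval of 0.957 to 1.46. For gamma over alpha, which had too few gamma cells for the test, the ratio on summed UMIs was 0.908, with a counting interval of 0.614 to 1.30.

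The order of classes was therefore beta, delta, alpha for the mean level of each receptor, and neighbours in that order passed the test except delta and alpha for Glp1r and Gipr. These values depend on how libraries of unequal hormone load are scaled. With library sizes of all UMIs and no further scaling, a choice tried after seeing the data, the median of all genes moved to -0.56 for beta over alpha, -1.25 for beta over delta and 0.67 for delta over alpha. Relative to 1 UMI of any kind, Gipr was then 0.56 higher in beta than in delta (adjusted p = 0.0263) and 0.72 higher in delta than in alpha (adjusted p = 0.0114), both on the log2 scale from edgeR.

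**Figure D2:**
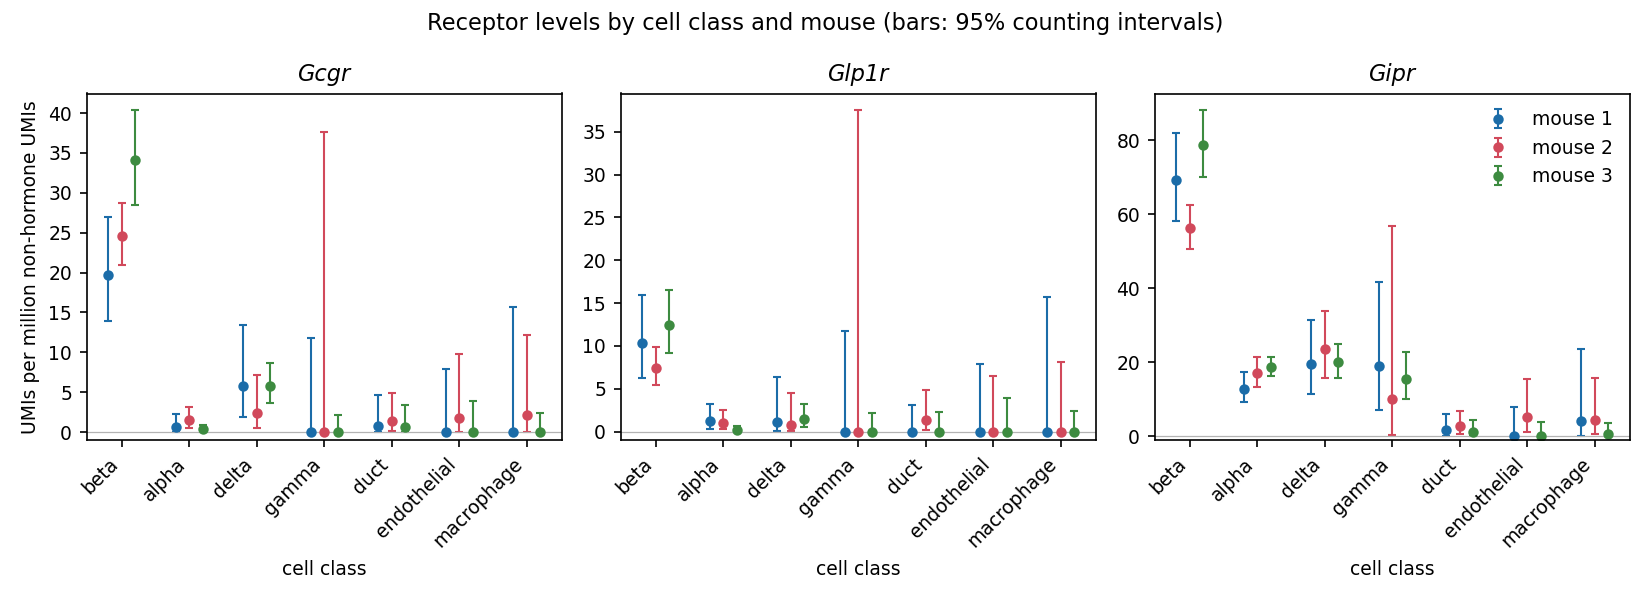
Levels of Gcgr, Glp1r and Gipr as UMIs per 1000000 UMIs outside the hormone genes, for 7 cell classes and each mouse, with exact 95% counting intervals. Beta points sit highest for each gene, and Gipr is also present at 10.2 to 23.5 non-hormone CPM in alpha, delta and gamma cells.

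**Figure D3:**
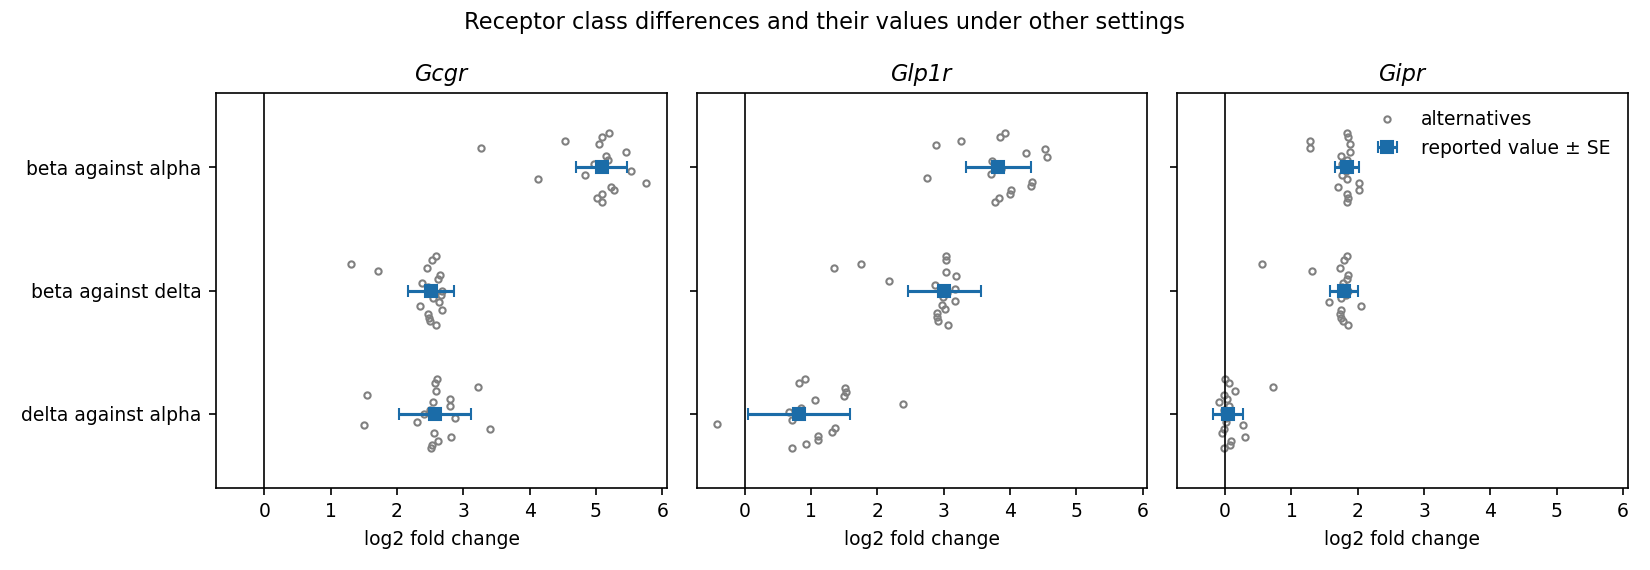
Log2 fold changes between endocrine classes for each receptor, with the reported edgeR value and its standard error as a square and every other setting as an open circle. Beta lies above alpha and delta at every setting, while Gipr in delta against alpha is spread around 0.

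Outside the endocrine classes few receptor UMIs were found, and the smaller classes are too small to call the receptors absent. Over 9 non-endocrine classes together there were 11 Gcgr UMIs (0.766 non-hormone CPM, exact 95% interval 0.382 to 1.37), 4 Glp1r UMIs (0.278 non-hormone CPM, 0.0759 to 0.713) and 20 Gipr UMIs (1.39 non-hormone CPM, 0.850 to 2.15). The endothelial class (374 cells) held 1, 0 and 3 UMIs of Gcgr, Glp1r and Gipr, the macrophage class (251 cells) 1, 0 and 4, and the duct class (251 cells) 4, 2 and 8. In the pericyte or smooth muscle class (155 cells) Gcgr averaged 4.57 ± 3.97 non-hormone CPM (SD, n = 3) on 2 UMIs, with an upper 95% limit of 10.1 on summed UMIs. That limit was 6.90 in 57 fibroblasts, 18.4 in 49 Schwann, 44.4 in 37 dendritic and 304 in 8 T or NK cells. For Gcgr, the alpha level of 0.813 ± 0.580 non-hormone CPM stood beside 0.587 ± 1.02 in endothelial cells and 0.732 ± 1.27 in macrophages (SD, n = 3 each). Alpha over the mean of those 2 classes was 0.17 (SE 1.14, adjusted p = 0.945, edgeR), so alpha Gcgr was not separable from the level in cells that should lack the gene. Beta over the same background was 5.25 (SE 0.60, adjusted p = 5.77e-09) and delta 2.73 (SE 0.87, adjusted p = 0.0079, edgeR), where 32.6% and 31.2% of tested genes were called higher. Without mouse 3 the beta value was 3.88 (adjusted p = 3.52e-07) and the delta value 1.24 (adjusted p = 0.551, both edgeR with no low-count filter). Without mouse 2 both background classes were at 0 for Gcgr, so no fold is given. For Gipr, beta, alpha and delta all stood above that background, by 4.87 (SE 0.37, adjusted p = 7.64e-13), 3.03 (SE 0.45, adjusted p = 9.93e-07) and 3.08 (SE 0.48, adjusted p = 2.03e-06, all edgeR), and 32.0% of tested genes were called higher in alpha. Without mouse 3 the Gipr values were 3.72, 1.88 and 2.15 (adjusted p = 1.33e-09, 0.0043 and 0.0023, edgeR). Without mouse 2, which held 5 of the 7 background UMIs, they were 7.90, 5.88 and 5.86 (adjusted p = 8.18e-11, 1.17e-06 and 2.60e-06, edgeR). For Glp1r, endothelial and macrophage sums were at 0 in every mouse, so no fold is given. With no low-count filter the adjusted p was 5.48e-09 for beta, 0.175 for alpha and 0.0659 for delta (edgeR), where 22.9%, 22.9% and 21.0% of genes were called higher. Of all receptor UMIs in kept cells, the beta class held 328 of 463 for Gcgr (70.8%), 116 of 176 for Glp1r (65.9%) and 801 of 1609 for Gipr (49.8%).

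Counted over the 3 mice, most cells of each endocrine class carried no receptor UMI, namely 805 of 1378 beta, 1535 of 1832 alpha, 607 of 740 delta and 190 of 220 gamma cells. In mouse 3 alone, 60.2% of beta cells carried at least 1. Gcgr was seen in 17.8%, 13.3% and 23.1% of beta cells and in 1.06%, 1.34% and 0.335% of alpha cells in mice 1, 2 and 3. Gipr was seen in 37.9%, 24.9% and 47.3% of beta cells, against 17.6%, 12.7% and 15.9% of alpha cells. Median depth over the mice ran from 7228 to 31678 UMIs in beta, 10798 to 30732.5 in alpha and 4287 to 9504 in endothelial cells. When each cell was thinned to 2000 UMIs, leaving out 13 beta, 75 alpha and 43 delta cells below that, Gcgr remained in 1.39% of 1365 beta cells (exact 95% interval 0.840 to 2.17), 0.171% of 1757 alpha cells (0.0352 to 0.498) and 1.004% of 697 delta cells (0.405 to 2.06). The endothelial share was then 0.296% (0.00749 to 1.64), so that only the beta and alpha intervals lay apart. These intervals pool cells over mice and do not cover differences between mice. In mice 1, 2 and 3 the Gcgr shares were 2.31%, 0.614% and 2.65% in beta and 0%, 0.676% and 0% in alpha cells. Beta was thus not above alpha in mouse 2, and the 2 intervals lay apart only in mouse 3. Glp1r fell to 9 of 1365 beta cells, 1 of 1757 alpha cells and 3 of 697 delta cells, and 0 of 338 endothelial cells, with an exact upper 95% limit of 1.09%. Thinned Gipr shares were 3.88% (2.92 to 5.05) in beta, 2.22% (1.58 to 3.02) in alpha and 3.59% (2.33 to 5.25) in delta cells. In mice 1, 2 and 3 they were 3.47%, 3.44% and 5.03% in beta and 3.39%, 6.34% and 2.82% in delta cells. Delta was thus above beta in mouse 2, and the beta and delta intervals overlapped in every mouse. Since hormones take most UMIs of a beta cell, cells were also thinned to 1000 UMIs of other genes. Gipr was then seen in 6.11% of beta (4.89 to 7.53), 2.02% of alpha (1.42 to 2.79) and 1.40% of delta cells (0.676 to 2.57), and Gcgr in 1.94% (1.27 to 2.83), 0.112% (0.0136 to 0.406) and 0.562% (0.153 to 1.43) of the same classes. Glp1r was then seen in 5 of 1342 beta cells (0.373%, 0.121 to 0.867), 3 of 1778 alpha cells (0.169%, 0.0348 to 0.492) and 0 of 712 delta cells, with an exact upper 95% limit of 0.517%, and a difference was not detectable at this depth. On sums of cells thinned to 2000 UMIs, Gcgr beta over delta was 1.71 (adjusted p = 0.194) and Glp1r beta over alpha 2.88 (adjusted p = 0.207), both without a call in a fit with no low-count filter (edgeR).

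Receptors were also counted together in single cells. Of 1378 beta cells, 380 held UMIs of 1 receptor, 175 held a pair and 18 held all 3. The commonest pair of UMIs was Gcgr with Gipr, in 144 beta cells, followed by Glp1r with Gipr in 56 and Gcgr with Glp1r in 29. Beta cells with at least 2 receptors had median depths of 81497, 78503.5 and 38890 UMIs in mice 1, 2 and 3, against 4015, 5590 and 7731 UMIs in beta cells with none. Depth thus moved with co-detection, and its part in it was not tested. In alpha cells 4 of 1832 held a pair, and in delta cells 9 of 740 did, with no cell of either class holding all 3. The highest count in 1 beta cell was 5 UMIs for Gcgr, 3 for Glp1r and 7 for Gipr.

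Receptor levels were next set against the insulin share itself, in beta cells and in cells below the limit that had no class. Among beta cells, Gipr was 59.4, 42.6 and 101.2 non-hormone CPM in mice 1, 2 and 3 where insulin took 30% to 45% of UMIs, 82.0, 46.8 and 86.3 at 45% to 60%, and 65.1, 60.5 and 73.9 above 60%. No steady order over these bins appeared in all mice. Cells with no class and 10% to 30% insulin, which numbered 340, 437 and 36, had 76.3, 55.5 and 68.8 non-hormone CPM, within the range of the beta bins in mice 1 and 2 and below it in mouse 3. Gcgr in those cells was 22.4, 20.5 and 27.5 non-hormone CPM, against 19.6, 24.6 and 34.1 in the whole beta class of the same mice. Their counting intervals overlapped those of the beta class in every mouse for both genes. In cells with no class and under 2% insulin, of which there were 4, 17 and 60, no Gcgr or Glp1r UMI was seen, with upper 95% limits of 57.1, 23.3 and 8.79 non-hormone CPM for each gene. Gipr was still found there, at 15.5, 6.32 and 35.8 non-hormone CPM (1, 1 and 15 UMIs). At 2% to 10% insulin Gipr was 100.9, 32.5 and 68.3 non-hormone CPM.

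**Figure D4:**
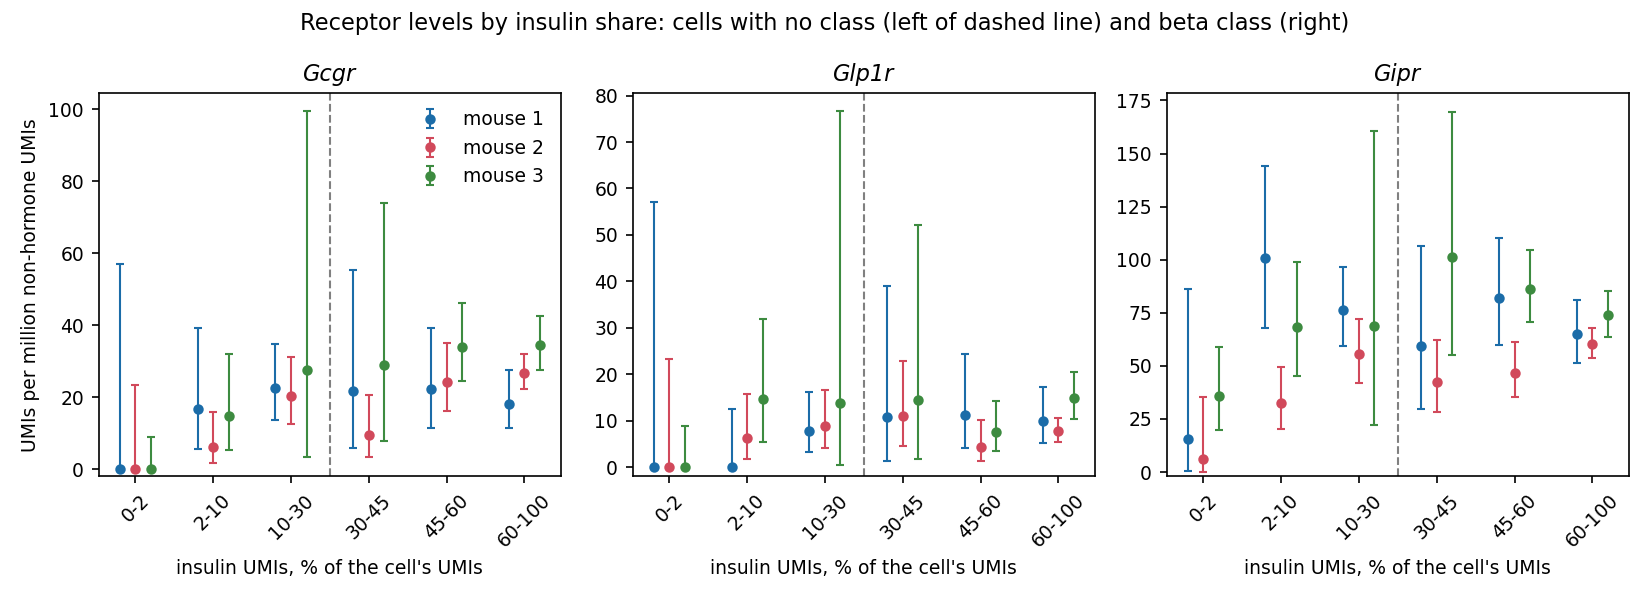
Levels of each receptor (UMIs per 1000000 UMIs outside the hormone genes, exact 95% counting intervals) by the share of a cell's UMIs from insulin, for cells with no class left of the dashed line and beta cells right of it, 1 point per mouse. Gipr lies between 55.5 and 76.3 non-hormone CPM at 10% to 30% insulin and between 60.5 and 73.9 above 60%.

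Of 71 listed genes around these receptors in the pathway, 53 were tested between beta and alpha cells. Of these, 11 were higher in beta (20.8%, beside 19.5% of all tested genes), 14 were lower (26.4%, beside 19.6%) and 28 were not called. Their median log2 fold change was -0.0084, beside -0.00076 for all genes. These counts lie near those of all genes and show nothing about the list as a whole. The groups below hold few tested genes, so their counts show nothing about a group either, and single genes are described by their own values. Among genes of proglucagon processing and peptide breakdown, 8 were tested, 2 rose in beta relative to alpha and 1 fell. Pcsk1, whose convertase PC1/3 releases GLP-1 from proglucagon and is needed for insulin, had 590, 698 and 431 non-hormone CPM in beta cells, against 11.3, 11.2 and 2.45 in alpha cells (log2 fold change 6.18, SE 0.50, adjusted p = 1.80e-06, edgeR). Pcsk2, whose convertase PC2 releases glucagon, averaged 3035 ± 172 non-hormone CPM in beta and 5388 ± 772 in alpha cells (SD, n = 3 each) and was not called (-1.03, adjusted p = 0.134, edgeR). Dpp4, the enzyme that inactivates both incretins, was 55.3 ± 5.21 in beta and 21.5 ± 3.76 in alpha cells (1.17, adjusted p = 0.0015, edgeR), while Pam, which amidates peptides, was lower in beta (-1.57, adjusted p = 0.0012, edgeR).

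Of the receptor partners and arrestins, 2 of 8 rose in beta relative to alpha and none fell, beside 19.5% higher and 19.6% lower among all tested genes. Ramp2, a receptor activity-modifying protein that can bind the glucagon receptor, had 21.2, 27.2 and 32.8 non-hormone CPM in beta cells, against 3.13, 4.63 and 5.51 in alpha cells (2.39, adjusted p = 3.50e-12, edgeR). Grk5, a kinase that phosphorylates active receptors, was 19.6 ± 1.495 in beta and 4.27 ± 0.402 in alpha cells (2.04, adjusted p = 3.67e-07, edgeR). Of the G proteins and cyclases, 2 of 6 rose and 2 fell. Gng12, a G protein gamma subunit gene, had 934, 893 and 1212 non-hormone CPM in beta cells, against 58.9, 61.2 and 59.9 in alpha cells (3.89, adjusted p = 2.03e-17, edgeR), whereas Gnas, which encodes the Gs alpha subunit that these receptors use, was 1509 ± 78.6 in beta and 6877 ± 733 in alpha cells (-2.36, adjusted p = 1.30e-14, edgeR). The adenylyl cyclase genes moved apart, Adcy9 higher in beta (0.99, adjusted p = 0.00014) and Adcy6 lower (-0.74, adjusted p = 0.00066, edgeR). The Adcy9 call was lost when all UMIs were used with no further scaling (0.43, adjusted p = 0.0707, edgeR).

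Downstream of cyclic AMP, 2 of 13 effector genes rose in beta relative to alpha and 4 fell, beside 19.5% higher and 19.6% lower among all tested genes. Prkar2b, a regulatory subunit of protein kinase A, was 44.7 ± 7.16 non-hormone CPM in beta and 9.40 ± 2.35 in alpha cells (2.01, adjusted p = 4.20e-11, edgeR). Prkacb, a catalytic subunit, was higher in beta (0.71) and Crem, a cyclic AMP-responsive transcription factor, lower (-0.60), of which the Prkacb call was lost with all UMIs and no further scaling (0.14, adjusted p = 0.396, edgeR). Rapgef4, which encodes the cyclic AMP sensor Epac2, was lower in beta (-0.54, adjusted p = 0.0036), a call that was lost without mouse 2 (adjusted p = 0.0782) and with hormone genes left out of the table (-0.36, adjusted p = 0.0624, edgeR). Of the phosphodiesterases, which break cyclic AMP or cyclic GMP down, 1 of 8 rose and 4 fell. Pde4d had 6.20, 5.11 and 6.24 non-hormone CPM in beta cells, against 45.7, 39.5 and 78.0 in alpha cells (-3.41, adjusted p = 1.75e-05, edgeR), and Pde10a was 102 ± 7.86 in beta and 331 ± 52.4 in alpha cells. Pde1c was lower in beta (-0.77) and Pde4b higher (1.18, adjusted p = 0.147 without mouse 2, edgeR).

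Of the transcription factors that act on the Gcg gene, 1 of 7 rose in beta relative to alpha and 3 fell. Among all tested genes 19.5% were higher and 19.6% lower. Tcf7l2, a Wnt pathway factor, was 15.6 ± 3.81 non-hormone CPM in beta and 22.6 ± 2.30 in alpha cells (log2 fold change -0.77, adjusted p = 0.000229, edgeR). Foxa2 was at 0.30 (adjusted p = 0.0486), a call lost without mouse 1 or mouse 2 (adjusted p = 0.165 and 0.241, edgeR) and at -0.27 when all UMIs were used with no further scaling. Of 10 ligands and related receptors only Vip, Vipr1 and Sctr passed the filter. Vip, which encodes a neuropeptide, was called higher in beta (2.40), but its UMIs were nearly confined to mouse 1, with 113, 0 and 0.260 non-hormone CPM in beta, against 18.8, 0 and 0.0875 in alpha cells. It could not be tested without mouse 1.

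**Figure D5:**
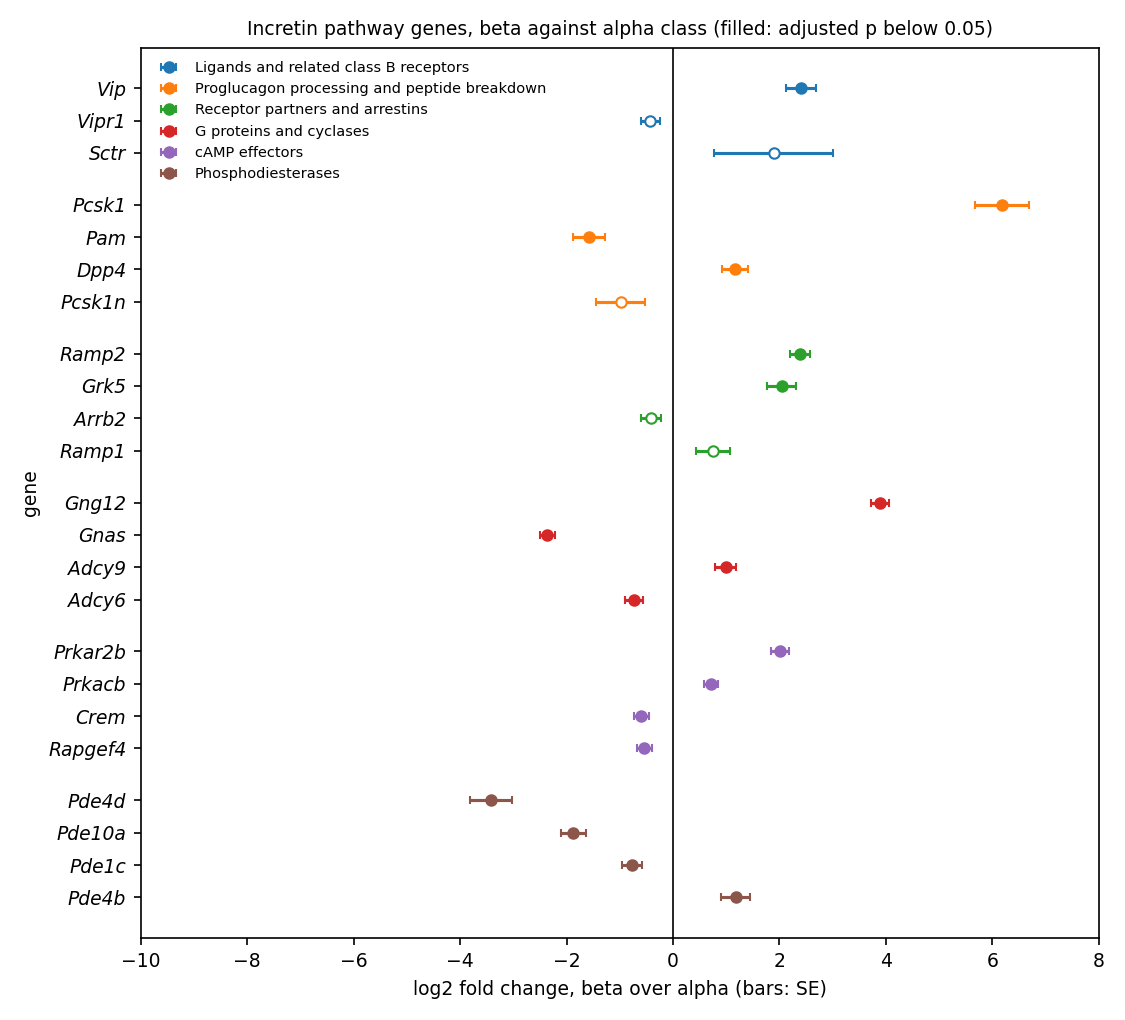
Log2 fold changes of beta over alpha with standard errors for up to 4 genes with the smallest p in each of 6 pathway groups, transcription factors not shown, filled where the adjusted p is below 0.05. Pcsk1 at 6.18 and Gng12 at 3.89 stand highest, and Pde4d at -3.41 and Gnas at -2.36 lowest.

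Pathway genes called higher in delta cells than in both alpha and beta cells included Ramp1, Pde3a, Rapgef3, Arrb1 and Tcf7l2. Those called lower than in both included Vipr1, Arrb2, Rapgef4 and Nkx2-2. With all UMIs and no further scaling, beta over delta was -0.055 for Arrb2 and 0.023 for Nkx2-2, and neither was called. Rapgef4 was then at -0.48 and called lower in beta than in delta (adjusted p = 0.0283, edgeR), the reverse of its first call. Of the 53 tested genes, 12 were higher in delta than in alpha and 10 lower, beside 29.7% of all genes called in that comparison (15.3% higher, 14.4% lower), and 10 were higher in beta than in delta and 11 lower, beside 33.9% (16.4% higher, 17.6% lower). Ramp2 was 27.0 ± 4.10 non-hormone CPM in delta and 4.43 ± 1.20 in alpha cells (2.31, adjusted p = 8.98e-11, edgeR), and was not called between beta and delta (0.080, adjusted p = 0.773, edgeR). Ramp1, a partner of the calcitonin receptor-like receptor, was 101.5 ± 61.1 in delta and 8.21 ± 2.96 in alpha cells (3.40, adjusted p = 1.29e-07, edgeR) and was lower in beta than in delta cells (-2.65, adjusted p = 1.25e-06, edgeR). Pde3a had 17.3, 17.8 and 15.7 non-hormone CPM in delta cells, against 0.313, 0.975 and 0.612 in alpha cells (4.35, adjusted p = 3.77e-09, edgeR). Beta cells had 0.517, 1.39 and 0.520 (-4.12 for beta over delta, adjusted p = 1.93e-08, or -4.75 and adjusted p = 3.04e-05 without mouse 2, edgeR). Rapgef3, which encodes the cyclic AMP sensor Epac1, was 0.327 ± 0.284 in beta and 7.80 ± 0.488 in delta cells (-4.13 for beta over delta, adjusted p = 8.20e-06, or -4.92 without mouse 2, edgeR). In delta against alpha cells, which had 1.22 ± 1.15, it was 1.96 (adjusted p = 0.0012, or 3.48 and adjusted p = 0.00070 without mouse 3, edgeR). Pcsk1 was 115 ± 34.8 in delta and 8.31 ± 5.08 in alpha cells (3.78, adjusted p = 0.00018, edgeR), and Vipr1, a receptor for the neuropeptide VIP, 4.23 ± 1.53 in delta and 36.5 ± 4.92 in alpha cells (-3.18, adjusted p = 1.38e-10, edgeR) and higher in beta than in delta cells (2.76, adjusted p = 6.18e-09, edgeR).

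The genes whose pattern was most like each member were sought over 18 sums of 6 classes in 3 mice, by Pearson's r of log2 CPM with a pseudocount of 10. These points share libraries and classes, so r is a description. For Gcg the 5 closest included Edn3 (0.96), Irx1 (0.95) and Irx2 (0.94), each at 57.6 to 91.1 CPM of all UMIs in alpha and under 2 CPM in beta cells. For Gcgr they were Zdhhc2 (0.91), Ppp1r1a (0.90), Vstm2l (0.89), Atp2a2 (0.87) and Plut (0.87). For Glp1r they were Atp2a2 (0.93), Ucn3 (0.89), Nkx6-1 (0.88), Trpm5 (0.87) and Zdhhc2 (0.87), of which Ucn3 and Nkx6-1 are beta cell genes. Glp1r itself reached at most 4.08 CPM of all UMIs in these sums, below the pseudocount. It was at 0 in every endothelial and macrophage sum, so its r rests on few UMIs, most of them in beta cells. For Gipr they were Atp2a3 (0.92), Phactr1 (0.92), Syt13 (0.92), Mns1 (0.92) and Syndig1l (0.91). Syndig1l averaged 60.1 CPM in beta, 17.5 in alpha and 97.3 in delta cells, so a like pattern did not require the same highest class.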

How the data were processed

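The deposited files hold counts, as whole numbers of UMIs per gene and barcode from 10x Genomics 3′ libraries, for 4444 to 6005 barcodes per mouse. Cell Ranger 2.2 with mm10 is named in the submitters' processing notes, while the deposited matrix headers name software version 3.1.0. The members and gene lists were chosen with earlier results of these data known.

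Barcodes passed with 500 or more genes and no more than 15% mitochondrial UMIs, and the highest Scrublet scores were removed (scanpy 1.11.5) at 0.8% per 1000 barcodes, 55, 96 and 166 cells. Non-endocrine classes needed 4 detected markers (6 for duct, 3 for T or NK) or 40% acinar UMIs. UMIs were summed per mouse and class, and the 6 classes holding 20 or more cells in each mouse (beta, alpha, delta, duct, endothelial, macrophage) entered 1 fit with mouse as a block in edgeR 4.0.16, R 4.3.3 (filterByExpr, TMM, robust glmQLFit, glmQLFTest). Adjustment was Benjamini-Hochberg over all genes, at 0.05. SE is the log2 fold change over the root of F. TMM factors were 0.466 to 0.569 in beta, 0.716 to 0.809 in alpha and 1.19 to 1.27 in delta sums. Counts of calls over all genes omit typing markers and hormones. Classes of the same mouse come from 1 animal, and their deviations from the class means correlated at a median of 0.460. The median between mice, -0.235, is pushed below 0 by centring each class on its mean over 3 mice, so it is no separate contrast. The fit was tested on simulated data. Levels carry exact Poisson, and shares exact Clopper-Pearson, 95% intervals, which cover counting error only. The floor is 3 counts. Named genes are the members, up to 4 genes per pathway group with the smallest p, and the 5 genes closest in pattern to each member among those with at least 50 CPM in their highest class, numbered gene models left out. Pcsk2 was added after its values were seen. Alternatives used DESeq2 1.42.0, and scipy 1.17.1 under Python 3.11.15 gave the intervals. Glp1r did not pass filterByExpr in the planned fit, so its planned fit without that filter is reported. Some genes that the rule for named genes picks are not reported here.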

Additional observations from a re-analysis of the deposited data

Results flagged for a closer look

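The comparisons use neither the cells without a class nor the barcodes removed by the filters, and both held receptor UMIs above the highest endothelial or macrophage value. In cells without a class Gcgr was 14.2 non-hormone CPM on average over the 3 mice (8.87 to 19.9), where the highest endothelial or macrophage value was 2.196. Glp1r was 6.81 (5.59 to 7.76), where that value was 0, and Gipr was 58.4 (43.1 to 79.0), where it was 5.28. In removed barcodes the means were 9.66 for Gcgr (8.58 to 10.6), 3.54 for Glp1r (2.04 to 5.61) and 30.5 for Gipr (22.3 to 46.5). Cells without a class had median depths of 3106, 2894 and 2155 UMIs and median insulin shares of 15.6%, 12.7% and 4.31% in mice 1, 2 and 3, and insulin took 23.2%, 22.0% and 14.1% of UMIs in removed barcodes. The part of the insulin share and of depth in these values was not tested.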

How the results depend on the processing

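Beta stayed above alpha and delta for each receptor under every alternative run, with log2 values of 3.27 to 5.76 and 1.30 to 2.67 for Gcgr, 2.76 to 4.56 and 1.35 to 3.19 for Glp1r, and 1.28 to 2.02 and 0.56 to 2.04 for Gipr. Calls were lost when cells were thinned to 2000 UMIs (no low-count filter), for Gcgr in beta over delta (1.71), delta over alpha (1.55) and delta over background (2.83), and for Glp1r in beta over alpha (2.88), beta over delta (1.35) and beta over background (adjusted p = 0.0795). Without mouse 3, Gcgr in delta was not called against alpha (1.49986) or background (1.24), and leaving out each mouse gave 1.49986 to 3.41 and 1.24 to 6.76. Alpha Gcgr against background, 0.17, was -0.10 without mouse 1, -0.26 without mouse 3, -0.17 with classes from clusters, -0.77 with hormone share limits doubled, -0.14 with alpha cells by other markers, -0.033 in DESeq2 and -0.35 with all UMIs unscaled (leaving out each mouse, -0.26 to 3.35). The upper ends 6.76 and 3.35 come from the fit without mouse 2, where background Gcgr was at 0, and are no fold. Glp1r delta over alpha was 2.38 and called with classes from clusters, and -0.42 to 1.36 leaving out each mouse. Glp1r delta over background was called with classes from clusters (adjusted p = 0.0128) and with hormone genes left out of the table (0.0386, or 0.0230 with no filter). Gipr delta over alpha, 0.046, was 0.72 and called with all UMIs unscaled. It was -0.017 with no filter, -0.022 at 10% mitochondrial UMIs, -0.012 with no doublet removal, -0.094 with hormone share limits doubled, -0.024 thinned, -0.0089 with alpha, beta and delta sums alone, and -0.055 to 0.27 leaving out each mouse. The cause of these changes was not tested.

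With no replicate block no receptor call changed: beta over alpha was 5.02 for Gcgr, 3.78 for Glp1r and 1.85 for Gipr, and 3493 genes were called in place of 4662. With all UMIs unscaled 7535, 10040 and 7964 genes were called, in place of 4662 (beta over alpha), 4051 (beta over delta) and 3547 (delta over alpha). The share of calls that were higher was then 11.1%, 2.94% and 93.6%, in place of 49.8%, 48.2% and 51.4%. With hormone genes left out of the table it was 67.2%, 41.3% and 76.9%. Against background it was 17.0%, 29.2% and 59.0% unscaled and 73.4%, 68.8% and 76.4% with hormone genes left out, in place of 54.0%, 54.7% and 53.8% (beta, alpha, delta). Thinning gave 1060, 921 and 942 calls between endocrine classes, and 2735, 2792 and 2730 against background in place of 7201, 6983 and 6932. Without mouse 2 beta over alpha had 3100 calls, and without mouse 3 delta over alpha had 2338. Macrophages fell below 20 cells in a mouse at 1000 genes or 10% mitochondrial UMIs, so the background comparison has no value there. Receptor UMIs are few (12 Gcgr and 10 Glp1r in alpha cells), which limits what these libraries can separate.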
